A study of Caenorhabditis elegans with 8 samples.

Results

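Worms that spent the Shenzhou-8 mission weightless were compared with worms kept on the ground, by their microRNA (miRNA) levels. The comparison uses 4 of the 8 arrays of the series, with 1 array per strain and condition. The static flight samples sat in a fixed slot of the flight incubator, which combined space radiation (1.92 mGy) with microgravity. The ground control samples sat in a static slot of the same kind of incubator at 1g on Earth, run later than the flight. Each condition held 2 strains of Caenorhabditis elegans. N2 (Bristol) is the wild type. LS292 carries dys-1(cx18) I, a mutation of the worm dystrophin gene. Each sample was a pooled population that entered its container as dauer larvae, a resting stage that resists stress, and was held at 23 °C for 16.5 days and collected 7 h after the end. The array measures miRNAs, so dys-1 mRNA and the genotype could not be checked. In RNA from whole animals, fewer cells of a type and less miRNA per cell cannot be told apart. The question, as the series title states it, was the joint effect of radiation and microgravity.

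miRNAs are short RNAs that guide Argonaute proteins to messenger RNAs and lower their output. In worms the let-7 and lin-4 families time the larval stages, and the miR-51 and miR-58 families are large groups that share their seed, the bases that pair with targets. miR-237, of the lin-4 family, and let-7 and miR-84, of the let-7 family, have been linked in worms to the response to ionising radiation.

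Each probe was printed as 4 spots, and its value is the median of the 4 spot intensities after subtraction of the local background. The members are the C. elegans probes whose spot median reached 50 on 2 or more of the 8 arrays, which was 20 of 156. Nearest to that limit, the second-highest array read 54 for miR-73 and 54.5 for miR-1824 inside it, against 49.5 for miR-245 and 48 for miR-38 and miR-1822 outside it. All 20 names match a miRNA gene in RefSeq. The number of C. elegans probes at 50 or more was 11 in N2 and 15 in LS292 static flight, against 17 in N2 and 12 in LS292 on the ground. The arrays were not equally clean: 23.7% of the N2 static flight spots lay more than 50 below their local background, against 9.30% to 10.7% on the other 3 arrays. The 4 spots of an array are repeats of 1 sample, not replicates of a condition.

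A pair of scales was used for ratios. On the 5-probe scale, each array was divided by the median of the 5 named miRNAs that reached 50 on all 8 arrays (miR-257, let-7, miR-55, miR-1823 and miR-84), which is also the authors' constant. That constant was 205 in N2 and 201.5 in LS292 static flight, against 234.5 in N2 and 197.5 in LS292 on the ground. It is itself miR-84 on both LS292 arrays, miR-55 on the N2 static flight array and miR-1823 on the N2 ground array, so ratios of these miRNAs are partly set by the scaling. On the bright-probe scale, each array was divided by the median of all 163 probes, most without a name, that reached 50 on all 8 arrays. Among the 208 probes at 50 or more on the 4 arrays compared, the median log2 difference of static flight minus ground on the 5-probe scale was -0.54 in N2 and 0.24 in LS292. On the bright-probe scale it was -0.06 and -0.02.

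miR-237 was the 1 miRNA of 20 at 50 or more in both static flight samples and in neither ground sample, a pattern of 13 of 392 probes without a name. miR-81 was the 1 of 20 with the opposite pattern, which 5 of 392 had. miR-52 and miR-56, of the miR-51 family, were brighter in both static flight samples than in both ground samples, as were 19.2% of all probes past the minimum. No difference over both strains passed a test. A limma fit with strain and condition as terms, over all 8 arrays, called 0 of 20 miRNAs at an adjusted p under 0.05 (percent called 0), and 0 had an unadjusted p under 0.05. The fit had 3 residual degrees of freedom. Values under 80.1 on the 5-probe scale were raised to that floor before the fit, which is the highest value an intensity of 50 takes on any array, so the fit sees little of the dim miRNAs described here. An exact permutation test that pairs the arrays by strain could not go below p = 0.5 with 2 strains.

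**Figure D1:**
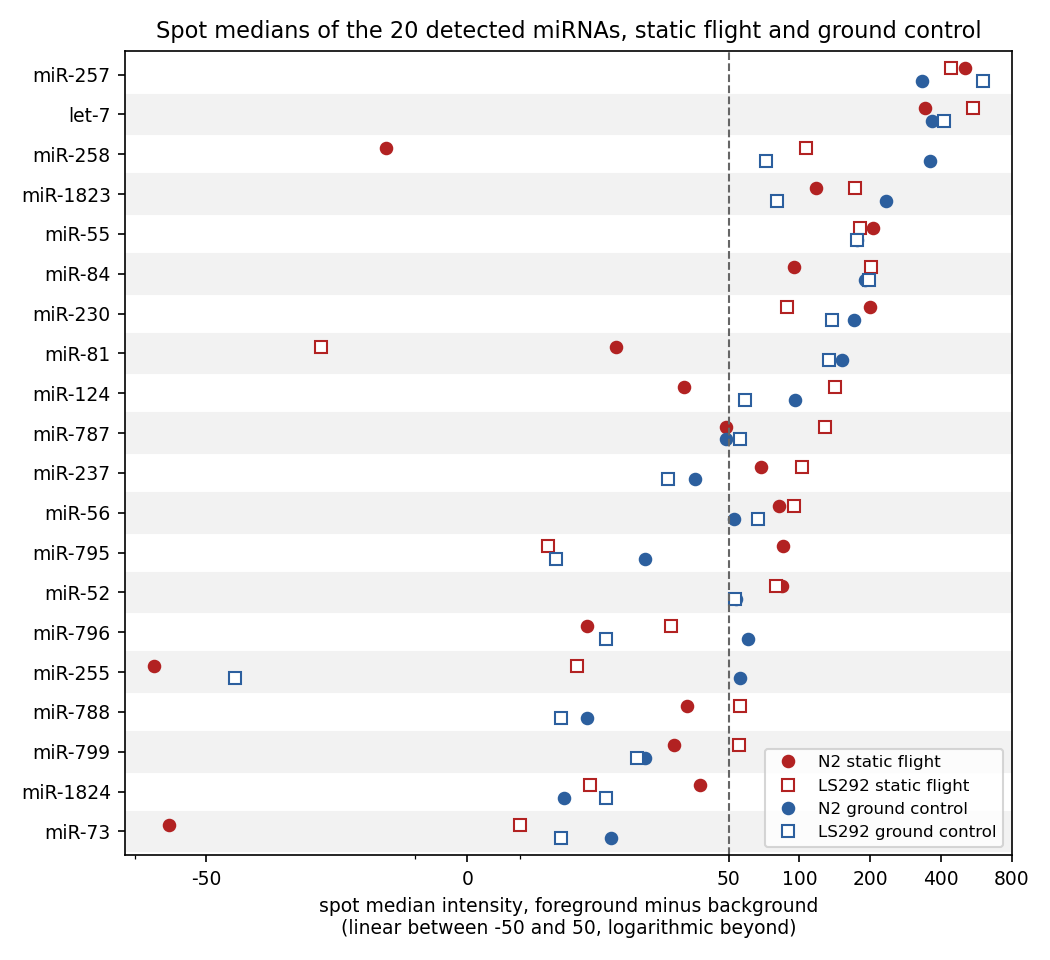
Spot medians of the 20 miRNAs (rows, ordered by their highest value) on the 4 arrays, in intensity units, with filled circles for N2, open squares for LS292, red for static flight and blue for ground control. The dashed line marks 50, and the axis is linear between -50 and 50 and logarithmic beyond. miR-237 lies right of the line in both static flight samples and left of it in both ground samples, and miR-81 shows the opposite.

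On the 5-probe scale, both static flight arrays were above both ground arrays for 6 of 20 miRNAs: miR-237, miR-52, miR-55, miR-56, miR-788 and miR-799. Among all 412 probes past the minimum, named or not, 19.2% were so. Both static flight arrays were below both ground arrays for 2 of 20, miR-81 and miR-73, against 17.2% of all probes. These shares are near the background of the array. On the bright-probe scale 7 of 20 were above, without miR-55 but with let-7 and miR-787, against 22.3% of all probes. There 3 of 20 were below, with miR-84 added, against 21.6%.

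miR-237, the lin-4 family member, had spot medians of 69 in N2 and 102.5 in LS292 static flight, against 43.5 in N2 and 38.5 in LS292 on the ground. With the ground value set at 50, static flight was at least 1.58-fold higher in N2 and at least 2.01-fold higher in LS292 on the 5-probe scale, and at least 2.21-fold and 1.68-fold higher on the bright-probe scale. The LS292 spots ran from 78 to 127 in static flight, against 19 to 45 on the ground, with no overlap. In N2 they were 23, 121, -543 and 115 in static flight, against 44, 43, 38 and 62 on the ground, so 1 static flight spot fell far below its background. Left out with other spots of high local background, that spot gave way to a static flight median of 115 in N2. Before background subtraction the medians were 177.5 in N2 and 157 in LS292 static flight, against 113 in N2 and 106.5 in LS292 on the ground. Rescaled to their own constants, these foreground values no longer put both static flight arrays above both ground arrays, and neither did the mean of the spots. In the other 6 of 8 alternatives they stood above. The fitted difference over both strains was log2 0.19 (SE 0.17, limma adjusted p 1). With the floor at 50 in place of 80.1 it was 0.76 (SE 0.45). With high-background spots left out it was 0.45 (SE 0.08, adjusted p 0.116), and without the LS292 static flight array it was -0.057. Its relative lin-4, a founding heterochronic miRNA, read 1.5 in both static flight samples, against -8.5 in N2 and -5 in LS292 on the ground, and was detected on no array.

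miR-81, a member of the miR-58 family related to fly bantam, had spot medians of 28.5 in N2 and -28 in LS292 static flight, against 151.5 in N2 and 133.5 in LS292 on the ground. It was the only member 2-fold or more apart in the same direction in both strains. That was 1 of 12 miRNAs with a value or bound in both, against 2.17% of all probes for lower in static flight, and 0 of 12 against 1.24% for higher. On the bright-probe scale it was 0 of 12 in either direction, against 3.11% lower and 1.55% higher. With the static flight value set at 50, ground was at least 2.65-fold above static flight in N2 and 2.72-fold in LS292 on the 5-probe scale. By the bright-probe scale these bounds were 1.90-fold and 3.26-fold. The spots disagreed widely. They were 62, -5, -109 and 194 in N2 and -22, 144, -473 and -34 in LS292 static flight, against 107, 196, -1403 and 440 in N2 and 112, 155, 61 and 193 in LS292 on the ground. The median local background of these spots was 100.5 in N2 and 136 in LS292 static flight, against 80 in N2 and 82.5 in LS292 on the ground, and its part in the result was not tested. Before subtraction the medians were 155 in N2 and 161 in LS292 static flight, against 276 in N2 and 203.5 in LS292 on the ground. With high-background spots left out, the N2 static flight median was 62, above the minimum, against 196 on the ground. The fitted difference was log2 -0.76 (SE 0.32, limma adjusted p 1). It was negative in 18 of 19 alternatives that gave a value and 0 with a minimum of 100. Some of these 18 could not have turned the sign. It stayed at -0.76 without the filter, with unnamed probes added and with another variance prior, which cannot change a fitted difference. It also stayed there without the strain term and on the static flight and ground arrays alone, where the balanced layout fixes it.

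The gene of miR-81 neighbours that of miR-82, another miR-58 family member, in RefSeq. miR-82 was outside the detection limit, with 8 in N2 and 35 in LS292 static flight, against 72 in N2 and 26 in LS292 on the ground. It was lower in static flight in N2 and not in LS292. miR-58 itself, among the most abundant worm miRNAs in general, read 3.5 in N2 and 11 in LS292 static flight, against -1.5 in N2 and 26.5 in LS292 on the ground. miR-80 and miR-1834, the remaining members, had highest spot medians of 8 and 0 on these arrays.

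**Figure D2:**
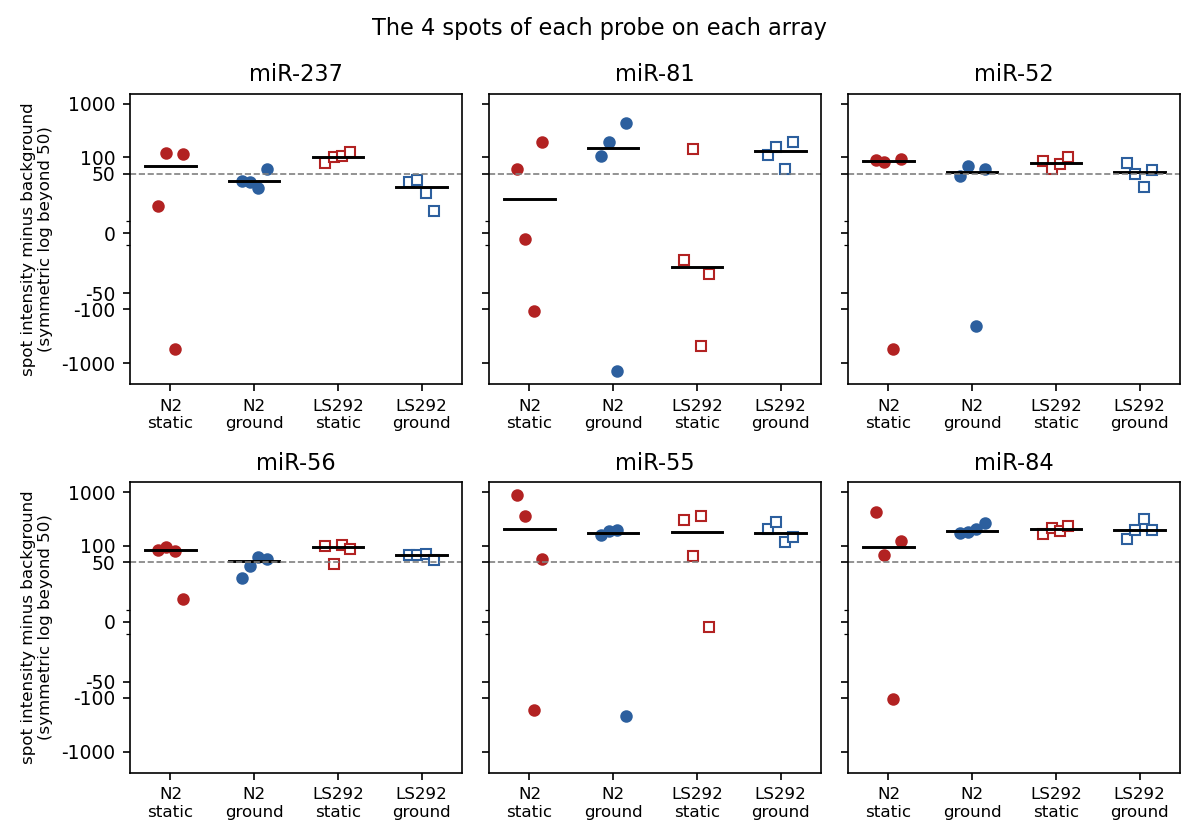
The 4 spots (points) and their median (bar) for 6 miRNAs on each array, as intensity minus local background, on an axis that is linear up to 50 in either direction and logarithmic beyond, with the dashed line at 50. Of these 6, only miR-237 has spots that separate fully, in LS292, from 78 to 127 in static flight against 19 to 45 on the ground. Single spots far below 0 appear on both conditions.

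Of the miR-51 family, which worms need for normal embryonic development, 3 of 6 members were detected, and all 3 were brighter in static flight in both strains on the 5-probe scale. miR-52 had spot medians of 84.5 in N2 and 79.5 in LS292 static flight, against 54 in N2 and 53.5 in LS292 on the ground. Its ratio was 1.79-fold in N2 and 1.46-fold in LS292. miR-56 had 82 in N2 and 94.5 in LS292 static flight, against 52.5 in N2 and 67 in LS292 on the ground, a ratio of 1.79-fold in N2 and 1.38-fold in LS292. For miR-52 and miR-56 the direction was the same on the bright-probe scale and without scaling. miR-55 had 205 in N2 and 181 in LS292 static flight, against 176 in both ground samples. Its LS292 ratio was 1.01-fold on the 5-probe scale and 0.842-fold on the bright-probe scale, so its direction in LS292 depends on the scaling. With high-background spots left out, the log2 difference of miR-55 was 1.88 in N2 and 0.88 in LS292. The fitted difference was then 1.38 (SE 0.35, limma adjusted p 0.191).

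The differences of miR-52 and miR-56 are small beside the background that was subtracted. For miR-52 in LS292 the median before subtraction was 137.5 in static flight and 137 on the ground, while the local background was 58.5 in static flight and 81 on the ground. For miR-56 in LS292 it was 144.5 in static flight and 124.5 on the ground, with backgrounds of 56 and 63. The median of all 156 named probes was -1.5 in N2 and 3.25 in LS292 static flight, against -6.5 in N2 and -3 in LS292 on the ground. With that median subtracted from each array, an alternative chosen after seeing the data, both static flight arrays stood above both ground arrays for miR-52 and miR-56 and not for miR-55. With the rescaled foreground, likewise chosen after seeing the data, the separation ended for miR-52 and miR-56. There the log2 difference of static flight minus ground was -0.11 in N2 and -0.31 in LS292 for miR-52, and 0.08 in N2 and -0.10 in LS292 for miR-56. The mean of the spots also ended the separation of miR-52. The fitted differences were log2 0.05 (SE 0.06) for miR-52, 0.21 (SE 0.38) for miR-55 and 0.15 (SE 0.32) for miR-56, each with a limma adjusted p of 1. The other 3 members, miR-51, miR-53 and miR-54, had highest values of 1, 6 and 17 on these arrays. The gene of miR-55 lies next to that of miR-56 in RefSeq.

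Of the let-7 family, 3 of 7 members were detected, and they gave 3 different patterns. let-7, which drives the change from larva to adult, had spot medians of 343 in N2 and 548.5 in LS292 static flight, against 367 in N2 and 413.5 in LS292 on the ground. The ranges overlap, and the ratio on the 5-probe scale was 1.07-fold in N2 and 1.30-fold in LS292. Without scaling the N2 ratio was 0.935-fold. The N2 ground spots of let-7 ran from -1789 to 826, and those of N2 static flight from 234 to 488. The fitted difference was log2 0.24 (SE 0.21, limma adjusted p 1). It was 1.34 with the mean of the spots in place of their median and 0.03 with high-background spots left out.

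miR-84, which acts with other let-7 relatives earlier in larval life, had 94.5 in N2 and 201.5 in LS292 static flight, against 190.5 in N2 and 197.5 in LS292 on the ground. The N2 static flight sample stood apart from the other 3, whose values lay within 190.5 to 201.5. Before background subtraction the order differed, with 347.5 in N2 and 255 in LS292 static flight, against 264 in N2 and 273.5 in LS292 on the ground, so N2 static flight was the highest of the 4. The rescaled foreground difference in N2 was log2 0.16. The background-subtracted N2 ratio was 0.567-fold on the 5-probe scale and 0.793-fold on the bright-probe scale. Its 4 spots in N2 static flight were 420, 67, -103 and 122, against 171 to 260 on the N2 ground array. The LS292 ratio of 1.00 on the 5-probe scale is fixed by the scaling, since miR-84 is the constant of both arrays. Under bright-probe scaling it was 0.835-fold and without scaling 1.02-fold. The fitted difference was log2 -0.41 (SE 0.39, limma adjusted p 1), and without the N2 static flight array it was 0.15. miR-795 was detected in N2 static flight alone among the 4 arrays, at 85.5, with 15.5 in LS292 static flight, against 34 in N2 and 17 in LS292 on the ground. The family's other members, miR-48, miR-241, miR-793 and miR-794, read 5.5 or less on all 4 arrays.

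With 1 array on each side, the difference inside a strain could not be tested. In N2, 0 of 15 miRNAs with a value or bound were 2-fold or more higher in static flight, against 7.37% of all probes, and 2 were lower, miR-81 and miR-258, against 30.3%. In LS292, 4 of 15 were higher, miR-237, miR-124, miR-1823 and miR-787, against 11.8%, and miR-81 alone was lower, against 4.48%. These counts depend on the scale. With bright-probe scaling, 5 miRNAs were 2-fold or more higher in N2 (miR-237, miR-257, miR-52, miR-56 and miR-795) against 18.4% of all probes, and 0 in LS292 against 5.88%. Lower were miR-258 in N2, against 18.1%, and miR-81 in LS292, against 6.72%.

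miR-258 gave the widest gap in N2. It read -15.5 in N2 and 107 in LS292 static flight, against 360.5 in N2 and 72 in LS292 on the ground. With static flight set at 50, ground was at least 6.30-fold above static flight in N2, whereas in LS292 static flight was 1.46-fold above ground. The N2 static flight spots were -99, 68, -760 and 132, against 327, 394, 540 and -195 on the N2 ground array. With high-background spots left out, N2 static flight read 100 and ground 394, and LS292 static flight read 136 and ground 130.

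miR-124, a neuronal miRNA found in ciliated sensory neurons of the worm, also went opposite ways. It had 41.5 in N2 and 142 in LS292 static flight, against 95.5 in N2 and 59 in LS292 on the ground. In LS292 its ratio was 2.36-fold, and in N2 static flight was below the minimum. miR-787 had 49.5 in N2 and 128 in LS292 static flight, against 49.5 in N2 and 56 in LS292 on the ground, a ratio of 2.24-fold in LS292 on the 5-probe scale and 1.87-fold on the bright-probe scale.

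The strains agreed in direction for 4 of the 8 miRNAs at 50 or more on all 4 arrays: let-7, miR-52, miR-55 and miR-56, each higher in static flight. Among all 208 such probes 51.9% had the same direction in both strains, higher and lower counted together, and 47.6% opposite ones. Bright-probe scaling again gave 4 of 8, with miR-84 in place of miR-55 and lower in static flight, against 60.1% with the same direction and 39.9% with opposite ones. Without scaling 3 of 8 agreed, miR-52, miR-55 and miR-56, while let-7 and miR-84 had opposite directions. miR-1823, miR-257 and miR-230 had opposite directions on both scales and without scaling. miR-1823 had 118 in N2 and 173 in LS292 static flight, against 234.5 in N2 and 80 in LS292 on the ground. Its ratio was 0.576-fold in N2 and 2.12-fold in LS292. Before background subtraction its LS292 medians were 258 in static flight and 253 on the ground, with local backgrounds of 50 and 146. On the rescaled foreground miR-1823 was lower in static flight in both strains, at log2 -1.43 in N2 and -0.29 in LS292. miR-257, bright in every sample, had 505 in N2 and 443 in LS292 static flight, against 331.5 in N2 and 603 in LS292 on the ground. Its N2 spots were 213, 540, 532 and 478 in static flight, against 210, 453, 20 and 1584 on the ground. miR-230 had 199 in N2 and 88.5 in LS292 static flight, against 170.5 in N2 and 137.5 in LS292 on the ground. In all 3 the static flight and ground ranges overlapped. The fitted differences of log2 0.14 (SE 0.77), 0.16 (SE 0.67) and -0.12 (SE 0.63) had a limma adjusted p of 1 each. Whether the strains differ was not tested, since 1 array per strain and condition leaves no error for it.

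**Figure D3:**
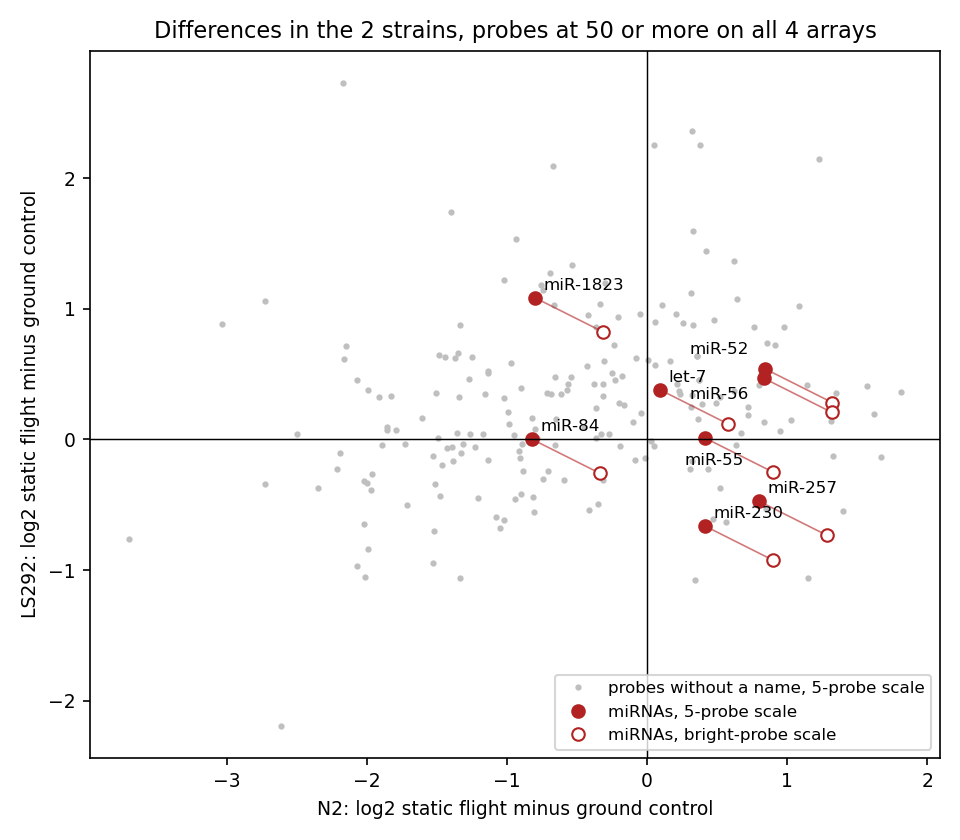
Log2 difference of static flight minus ground in N2 (x) and LS292 (y) for the 8 miRNAs at 50 or more on all 4 arrays, on the 5-probe scale (filled) and the bright-probe scale (open), with 200 probes without a name in grey on the 5-probe scale. miR-52 and miR-56 stay above 0 in both strains on both scales, while miR-55 in LS292 crosses 0 and miR-84 in LS292 moves from 0 to below it.

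The authors' deposited table gives ground over static flight. By it miR-237 was 0.551 in N2 and 0.383 in LS292, below 1 in both strains. The authors' deposited table gives 0.479 in N2 and 0.328 in LS292 for miR-788, where 3 of the 4 underlying spot medians were under 50. For miR-81 the authors' deposited table gives 4.65 in N2 and no value in LS292, where the static flight intensity was below 0.

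The other members gave little signal here. miR-788 had 42 in N2 and 56 in LS292 static flight, against 23 in N2 and 18 in LS292 on the ground, so both static flight samples were above both ground samples, but only 1 reached 50. miR-799 had 39.5 in N2 and 55.5 in LS292 static flight, against 34 in N2 and 32.5 in LS292 on the ground, again with 1 value past 50. miR-255 and miR-796 reached 50 on the N2 ground array alone, at 56 and 60.5. miR-73, of the miR-72 family, and miR-1824 reached it on none of the 4 arrays, with highest values of 27.5 and 44.5. A further 6 named probes reached 50 on 1 of these arrays without meeting the detection rule: lsy-6 (101), miR-256 (123), miR-265 (108.5) and miR-82 (72) on the N2 ground array, miR-1822 (54.5) in N2 static flight and miR-38 (58) in LS292 static flight.

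Detection differed between lists, beside 20 of 156 for all named miRNAs. Of the 4 miRNAs listed for radiation and DNA damage, let-7, miR-84 and miR-237 were detected, and miR-34, the worm relative of the DNA damage miRNA, was not, with a highest value of 6. All 7 stress and lifespan miRNAs were below the limit, and miR-34 was the brightest of them. miR-1, the muscle miRNA, had a highest value of 6. Of 7 dauer and starvation miRNAs only let-7 was detected, and of 4 neuronal ones only miR-124. No member of the miR-35, miR-64, miR-44, miR-46, miR-2 or miR-238 families passed. Of 7 miRNAs listed as abundant in worms 0 passed, and the highest value among them on these arrays was 26.5, for miR-58. A value below the limit on these arrays therefore does not by itself show a low level in the worms.

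The remaining conditions of the series place these values. miR-237 had 109 in N2 and 53.5 in LS292 on the 1g centrifuge in flight, and 56.5 in N2 and 41.5 in LS292 without transport, so the ground values were the lowest and the third-lowest of the 8 arrays. miR-81 had 185 and 242.5 on the centrifuge, and -24 in N2 and 144 in LS292 without transport. Its low reading was therefore shared by the N2 sample that was never transported. miR-52 on the LS292 centrifuge array was 36.5 and miR-56 on the LS292 no-transport array was 46.5, each below the ground values. miR-788 was brightest without transport, at 151 in N2 and 137 in LS292. miR-84 read 59.5 to 80 on the 4 arrays of those conditions, below all 4 arrays compared here.

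**Figure D4:**
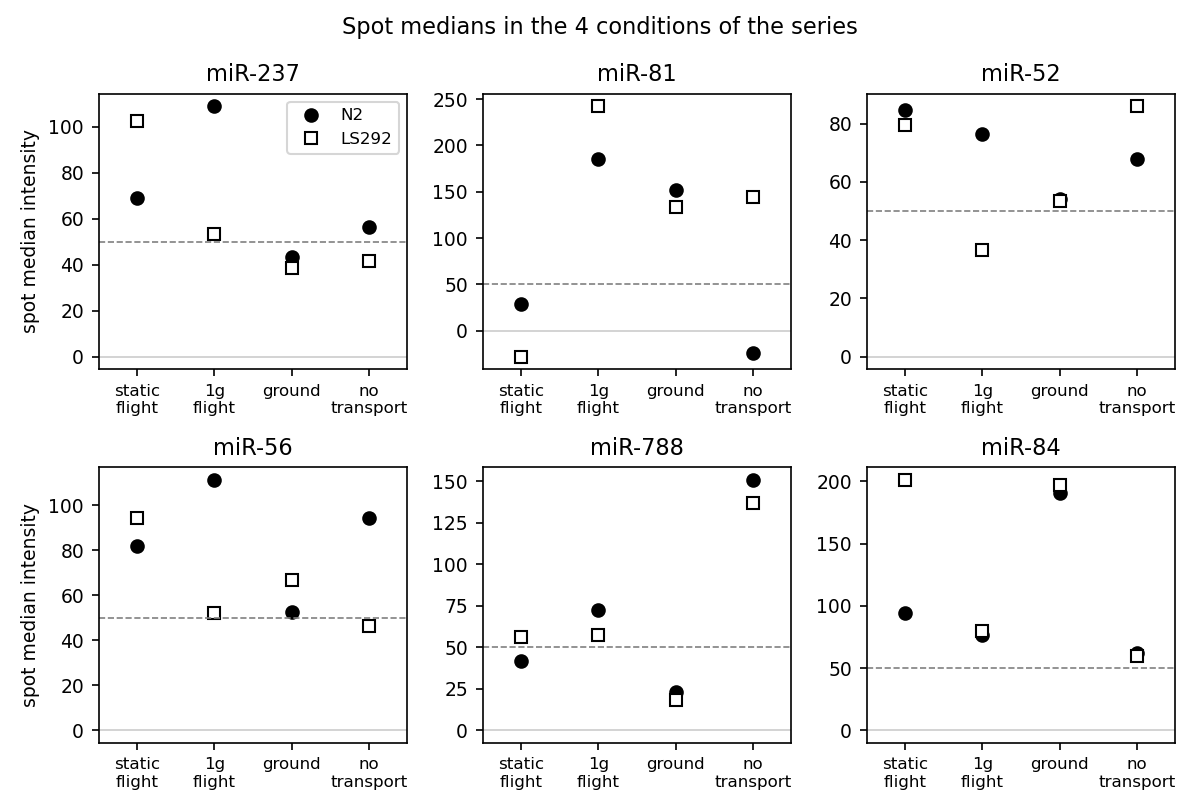
Spot medians of 6 miRNAs in the 4 conditions of the series, with filled circles for N2, open squares for LS292 and the dashed line at 50. miR-81 is under 50 in both static flight samples and in N2 without transport (-24), and miR-84 is lower on the centrifuge and without transport (59.5 to 80) than in the 4 samples compared here.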

How the data were processed

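Per the labels, each array received 1 ug of Hy3-labelled total RNA, and the platform was miRCURY with 1 colour. Per the labels there were technical repeats only, and these were reduced to 1 value per array. With 1 array per strain and condition, p-values of the main fit rest on how far the strains disagree over the conditions. They do not measure a spread between replicates. The scanner is not given in these sources. The authors deposited, as their file headers show, foreground and foreground-minus-background intensity for 10080 spots. The authors' normalized ratio equals the spot median over 1 constant per array for 100% of values above 0, within 0.1%. The deposited names stand as given, since no probe sequences were used.

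From the background-subtracted intensity, spot medians were scaled, floored and taken to log2. limma 3.58.1 in R 4.3.3 fitted strain and condition over 8 arrays, with Benjamini-Hochberg adjustment over 20 miRNAs. A fold with 1 array under 50 was set against 50. A block of 64 spots without a probe identifier was left out. Named miRNAs were those at 50 on all 4 arrays, those on in 1 condition only, and those 2-fold apart in a strain. The members and lists were chosen with earlier results of these data known. The fit was tested on simulated data with even noise and no floor, so that check does not measure its power on these floored values. Alternatives covered scaling, floor, filter, spots, background, prior and arrays left out.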

Additional observations from a re-analysis of the deposited data

Results flagged for a closer look

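5 miRNAs had opposite directions in the 2 strains, and these differences between strains were not tested. On the log2 scale of static flight minus ground, miR-1823 was -0.80 in N2 and 1.08 in LS292. miR-257 was 0.80 in N2 and -0.47 in LS292, and miR-230 was 0.42 in N2 and -0.66 in LS292. miR-124 was -0.74 or lower in N2 and 1.24 in LS292, and miR-258 was -2.66 or lower in N2 and 0.54 in LS292, both N2 values being bounds. The first 3 were among the 8 miRNAs at 50 or more on all 4 arrays, and of all 208 such probes 47.6% had opposite directions. miR-258 was lower in static flight in both strains on the rescaled foreground, at -1.62 in N2 and -0.58 in LS292. So was miR-1823, at -1.43 in N2 and -0.29 in LS292. With high-background spots left out, miR-258 was 0.04 in LS292. miR-257 was lower in both with the mean of spots, at -0.17 in N2 and -0.56 in LS292.

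Probes without a name, which the comparisons use only as background, carried signal. On the static flight and ground arrays alike, 200 of 2145 were at 50 or more, whereas this held for 8 of 156 named ones. The median empty spot lay between -1.5 and 0 on these arrays.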

How the results depend on the processing

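limma called 0 miRNAs in the main fit and in all 20 alternatives, with 0 to 2 at an unadjusted p under 0.05 among the named. Over 412 named and unnamed probes together it called 0, with 20 unadjusted and a lowest adjusted p of 0.0523. The counts 2-fold or more apart moved more. Higher in N2 gave 5 with bright-probe scaling, 3 with the mean of spots and 3 with high-background spots left out, against 0. Lower in N2 gave 1 with bright-probe scaling, 1 with a minimum of 100, 3 without scaling and 3 with the foreground, against 2. The authors' ratios gave 0 there, since they were counted only where both arrays reached the minimum, without bounds. That rule left out N2 ratios of ground over static flight of 4.65 for miR-81, 2.30 for miR-796 and 2.01 for miR-124. In the other direction it left out 0.363 for miR-1824, 0.479 for miR-788 and 0.348 for miR-795. Higher in LS292 gave 0 with bright-probe scaling, a minimum of 100 and the foreground without background subtraction, against 4. Lower in LS292 gave 0 with a minimum of 100, the foreground and the authors' ratios under the same rule, and 2 with the mean of spots, against 1. The strains agreed for 2 of 3 miRNAs with a minimum of 100, against 4 of 8.

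Signs of fitted differences turned in places. With the foreground alone, chosen after seeing the data, let-7 was -0.28, miR-52 -0.21, miR-56 -0.012, miR-257 -0.068 and miR-1823 -0.86, and miR-1823 in LS292 was -0.29. With normexp and quantile normalization miR-52 was -0.024, miR-237 -0.018, miR-1823 -0.15 and miR-230 0.048. With the mean of spots miR-257 was -0.36 and miR-230 0.68, with a minimum of 100 miR-1823 was -0.11 and miR-230 0.16, and with bright-probe scaling miR-230 was 0.11. Leaving out each of the 4 static flight and ground arrays in turn gave -0.97 to 0.15 for miR-84, -0.24 to 0.67 for miR-55, -0.15 to 0.45 for miR-56, -0.057 to 0.44 for miR-237, -0.66 to 0.99 for miR-257, -0.81 to 1.09 for miR-1823 and -0.63 to 0.38 for miR-230. miR-81 stayed between -0.97 and -0.54, with its static flight values raised to the floor in each of these fits. Over all alternatives miR-81 ran from -2.20, with the authors' ratios, to 0, with a minimum of 100. The causes were not tested. The labels carry no replicate numbers, and the arrays were paired by strain through the strain term, without which 0 were called. Subtraction of the named median, also chosen after seeing the data, called 0. The 4 centrifuge and no-transport arrays were not left out 1 at a time. With all 4 left out together, 1 residual degree of freedom was left. The fitted differences, such as -0.76 for miR-81, could not change in that fit, because each condition held 1 array of each strain. Values near 50 are close to the background, which limits their precision.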
